A study of Mus musculus with 16 samples.

Results

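The insulin-like growth factor (IGF) system was examined in the pressure-overloaded mouse heart through 10 genes: the ligands Igf1 and Igf2, the receptors Igf1r and Igf2r, and the binding proteins Igfbp2, Igfbp3, Igfbp4, Igfbp5, Igfbp6 and Igfbp7. They were chosen by name, with earlier results of these data known. They are the 10 of 55487 genes in the count table whose Ensembl identifiers carry these symbols. All 10 were among the 18275 genes with enough counts to be tested, Igfbp2 through its counts in the TAC groups. Polyadenylated RNA from the heart apex of 16 male mice was sequenced. Ctrl mice (genotype WT) had an intact Cardinal gene, annotated as Gm12295, which gives a long noncoding RNA enriched in the heart. KO mice lacked it in all tissues after CRISPR/Cas9 deletion. Either genotype underwent transverse aortic constriction (TAC), a ligature around the aorta that raises the pressure against which the left ventricle pumps, or the same operation without a ligature (sham). Hearts were collected 4 weeks later. The 4 groups, of 4 mice each, are called Ctrl sham, Ctrl TAC, KO sham and KO TAC. Age and the number of KO founder lines behind these mice are not given in the labels.

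IGF1 and IGF2 are small secreted proteins related to insulin. Both activate the tyrosine kinase receptor IGF1R and, through it, the PI3K and AKT pathway that promotes cell growth, while IGF2R carries IGF2 to lysosomes for degradation. The binding proteins hold IGFs in blood and tissue, and proteases release the ligands again; in the heart, IGF1 signalling is known for its part in physiological growth.

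The libraries held 53169437 to 79404714 counts. Levels are given as CPM, counts scaled to 1000000 per TMM-adjusted library, and changes as log2 fold changes with SE from 1 edgeR quasi-likelihood model of all 16 libraries. A gene was called at a Benjamini-Hochberg adjusted p under 0.05 over all tested genes. Cardinal was at 3.54 ± 0.280 CPM in Ctrl sham against 0.465 ± 0.119 CPM in KO sham (SD, n = 4), at 2.69 to 8.02 CPM in Ctrl TAC, and at 0.276 to 0.371 CPM in KO TAC 1 to 3. The library labelled KO TAC 4 held 4.55 CPM, which goes against its label. Ctrl TAC 2 stood apart on the second principal component. It held 67.6 CPM of 5 liver transcripts (Alb, Apoa1, Apoa2, Ttr and Serpina1a) against 2.94 to 6.79 CPM elsewhere, and 3.14 CPM of 6 adipocyte transcripts against 0.0338 to 0.647 CPM. Results that rest on these libraries are given with and without them. The cardiomyocyte list was abundant everywhere, at 36180 to 55642 CPM in sum. These are bulk samples, in which fewer cells of a type and less RNA per cell cannot be told apart.

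Per length of annotated exon, Igfbp7 was the most abundant of the 10 in every group. It stood at 92.6 ± 6.50 CPM per kb in Ctrl sham, above 98.0% of tested genes, and its libraries did not overlap those of Igf2r, the next at 19.2 ± 0.880 CPM per kb. Igfbp4 at 13.5, Igfbp5 at 11.5, Igfbp6 at 8.80 and Igfbp3 at 6.61 CPM per kb followed. The ligands and the signalling receptor were lower, with Igf2 at 1.55, Igf1r at 1.07 and Igf1 at 0.830 CPM per kb, and Igfbp2 was last at 0.0132. No neighbours in this order overlapped in Ctrl sham. In KO TAC the order had changed. Igfbp6 stood second at 20.8 ± 1.21 CPM per kb, overlapping Igf2r at 19.4 ± 1.60, and Igf1 at 1.70 ± 0.299 stood above Igf2 at 1.14 ± 0.233, again with overlapping libraries.

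**Figure D1:**
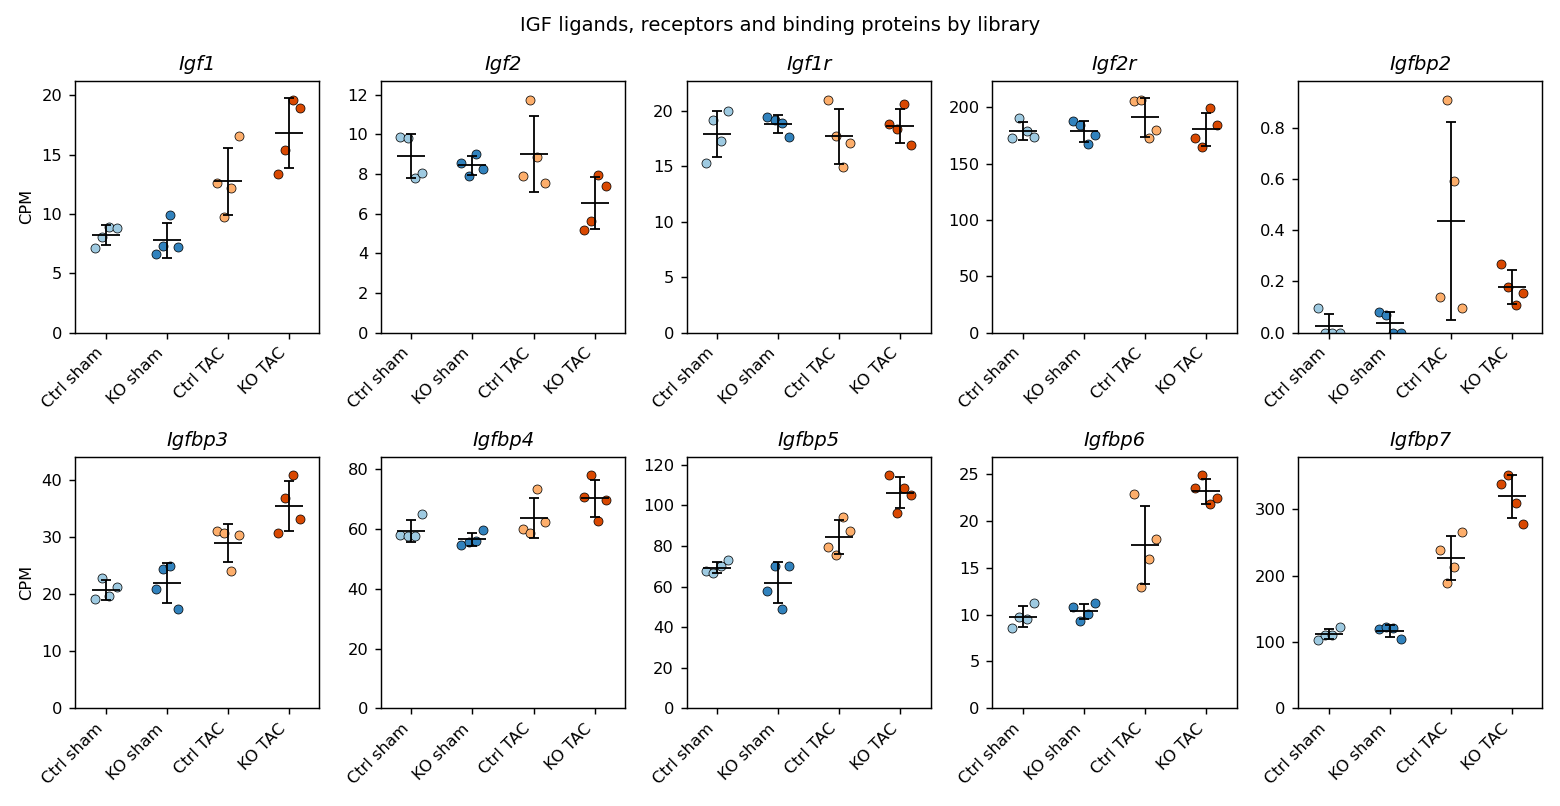
Level of each gene in CPM (linear vertical axis from 0) in the 16 libraries, by group. Points are libraries, the horizontal line is the group mean and the bars are 1 SD (n = 4). Igfbp7 sits at 103 to 122 CPM in sham and at 189 to 351 CPM in TAC libraries, while Igf1r and Igf2r stay within overlapping ranges in all groups.

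The first question was what pressure overload did to this system in hearts with Cardinal. Igfbp2 was close to 0 in sham hearts and is left out of the counts here, since it entered the tested set through the groups in which it was high. In Ctrl TAC, 5 of the other 9 genes rose and none fell: Igf1, Igfbp3, Igfbp5, Igfbp6 and Igfbp7. Over all tested genes, 10.4% were called higher, 9.60% lower and 20.0% in either direction. Because the members were chosen with earlier results known, such shares are set beside the counts as description only. The median log2 fold change of the 9 was 0.28, against 0.0043 over all tested genes. In KO TAC, again compared with its own sham group, 6 of the 9 rose and none fell: Igf1, Igfbp3, Igfbp4, Igfbp5, Igfbp6 and Igfbp7. Here 17.8% of all tested genes were called higher, 16.5% lower and 34.3% in either direction, and the median of the 9 was 0.69 against -0.0039 over all tested genes. Without Ctrl TAC 2 and the library labelled KO TAC 4, 5 of the 9 were called in Ctrl and 7 in KO, with Igf2 added as lower. The animal numbers in the sample titles fall into series of unstated meaning, and Ctrl TAC 2 to 4 and KO TAC 4 carry numbers that start with 25. With that series as a model term, 3 of the 9 were called in Ctrl and 7 in KO. No sham library carries such a number, so this term overlaps with surgery, most of all in Ctrl. Calls lost with it cannot be laid to the series or to surgery.

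**Figure D2:**
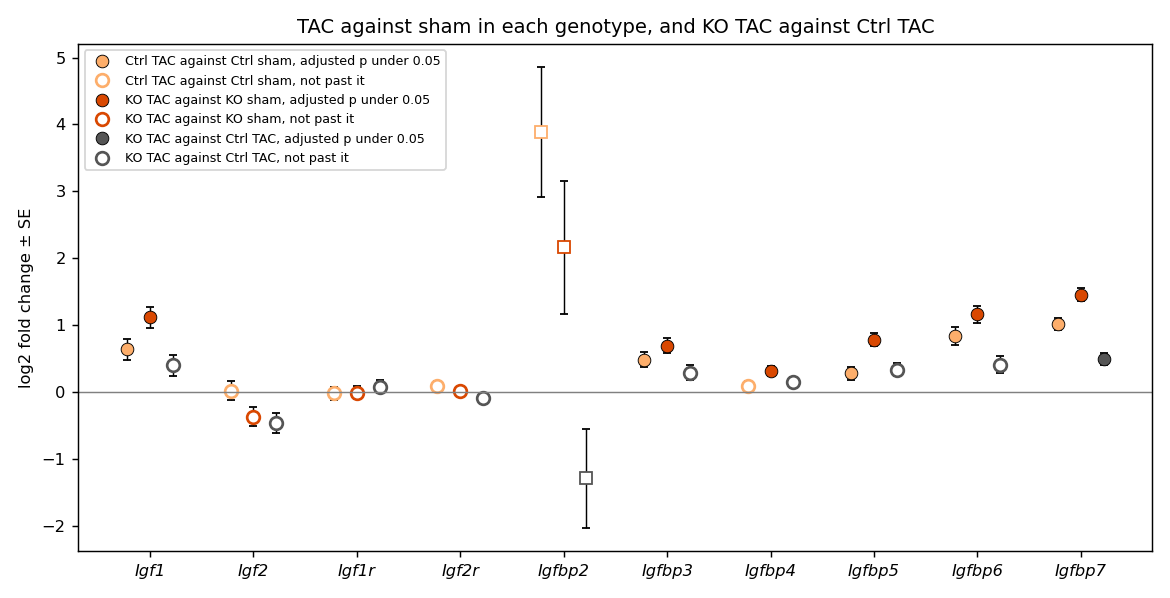
log2 fold change ± SE (vertical axis) of each gene for TAC against sham in Ctrl and in KO, and for KO TAC against Ctrl TAC. Filled points passed an adjusted p of 0.05, and Igfbp2 is drawn with open squares because no call is given for it. Igfbp7 is the only gene filled in all 3 comparisons, with 1.02, 1.46 and 0.50, and the receptors lie close to 0.

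Of the ligands, Igf1 (ENSMUSG00000020053, GRCm38 chr10:87858265-87937042, plus strand) is the growth factor through which growth hormone acts in many tissues. Its libraries read 7.14, 8.03, 8.87 and 8.84 CPM in Ctrl sham, with 6.66, 7.29, 9.88 and 7.22 CPM in KO sham. They read 12.6, 9.74, 12.2 and 16.5 CPM in Ctrl TAC and 13.4, 15.3, 19.6 and 18.9 CPM in KO TAC. Each TAC group lay wholly above its sham group, and Ctrl TAC 2 was the lowest of the TAC libraries. Igf1 rose by 0.64 on the log2 scale in Ctrl (SE 0.16, edgeR adjusted p = 0.00971) and by 1.12 in KO (SE 0.16, edgeR adjusted p = 5.15e-05). Both were called with any 1 library left out. The Ctrl call was lost when the animal-number series starting with 25 entered the model, at 0.54 (SE 0.21) with an edgeR adjusted p of 0.110.

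Igf2 (ENSMUSG00000048583, chr7:142650766-142666816, minus strand), the fetal growth factor expressed from the paternal allele, did not follow Igf1. Its libraries read 9.90, 9.83, 7.83 and 8.04 CPM in Ctrl sham, 8.57, 7.91, 9.04 and 8.24 in KO sham, 7.88, 11.8, 8.88 and 7.56 CPM in Ctrl TAC and 5.20, 5.62, 7.93 and 7.40 CPM in KO TAC. Ctrl TAC spanned the sham range and held the highest library, Ctrl TAC 2, while the lowest libraries were KO TAC 1 and 2. The change was 0.02 in Ctrl (SE 0.14, edgeR adjusted p = 0.951) and -0.37 in KO (SE 0.15, edgeR adjusted p = 0.0619), neither past the threshold. The KO value passed it at -0.43 without the library labelled KO TAC 4 (adjusted p = 0.0493), at -0.37 without Ctrl TAC 2 (adjusted p = 0.0279) and in the DESeq2 test (adjusted p = 0.0436). Igf2 shares 3596 of its 5723 exonic bases with Gm49394 on the same strand, which had 0 counts in every library. It shares 98 with the antisense gene Igf2os. Whether counting used the strand is not stated, which bears on the bases shared with Igf2os only. How reads in the bases shared with Gm49394 were assigned is not stated either. If they were dropped, the Igf2 counts and its level per length are too low, which was not tested.

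The balance between the ligand transcripts shifted with these values. Per length, the Igf1 to Igf2 ratio was 0.417 to 0.655 in Ctrl sham, 0.449 to 0.632 in KO sham, 0.479 to 1.26 in Ctrl TAC and 1.43 to 1.58 in KO TAC. Every KO TAC library had more Igf1 than Igf2 per length, and the KO TAC range lay above all others. The library labelled KO TAC 4, at 1.48, lay inside that range and did not set it. Lengths are those of all annotated exons, and the Igf2 counts have the limit given above. Whether a ratio above 1 means more Igf1 than Igf2 transcripts is therefore uncertain. Ctrl TAC 2 had the lowest ratio among TAC libraries, and without it Ctrl TAC ranged from 0.793 to 1.26. The ratio was not tested.

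**Figure D3:**
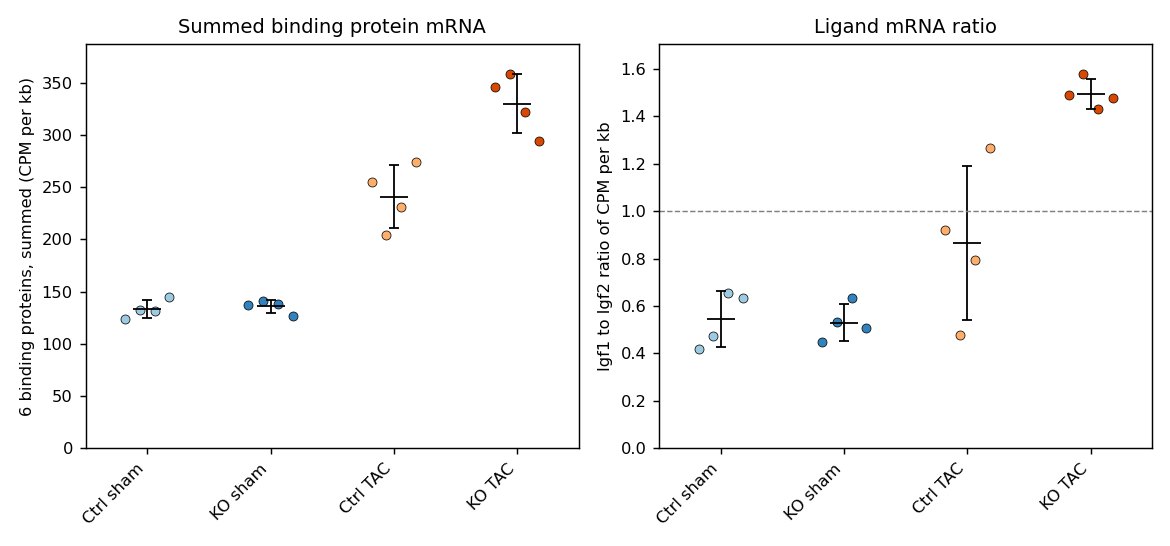
The left panel gives the summed level of the 6 binding protein transcripts in CPM per kb of exon by group. The right panel gives the ratio of Igf1 to Igf2 in CPM per kb. The dashed line marks equal CPM per kb of annotated exon. Points are libraries, lines are means and bars are 1 SD (n = 4). KO TAC lies highest in both panels, at 330 CPM per kb and a ratio of 1.49 on average.

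Neither receptor was called in any comparison. Igf1r (ENSMUSG00000005533, chr7:67952827-68233668, plus strand), the signalling receptor, read 15.3, 19.1, 17.3 and 19.9 CPM in Ctrl sham, 19.5, 19.2, 18.9 and 17.7 in KO sham, 21.0, 17.7, 14.98 and 17.1 CPM in Ctrl TAC, and 18.8, 18.3, 20.6 and 16.9 CPM in KO TAC. All groups overlapped. The change with TAC was -0.02 in Ctrl (95% interval -0.23 to 0.19) and -0.01 in KO (-0.22 to 0.20), and the sign of these values turned under several settings. Igf2r (ENSMUSG00000023830, chr17:12682406-12769664, minus strand), the IGF2 clearance receptor, ranged from 165 to 207 CPM over all 16 libraries. Its change was 0.10 in Ctrl (95% interval -0.05 to 0.24) and 0.01 in KO (-0.13 to 0.16). These intervals, from 12 residual degrees of freedom, bound the changes that the spread between libraries allowed. Igf2r exceeded Igf1r per length by 15.7 to 21.0 times in every library.

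Most of the genes called higher with TAC encode binding proteins, as do most of the genes examined. Igfbp7 (ENSMUSG00000036256, chr5:77349240-77408041, minus strand) encodes a secreted protein that binds IGFs with low affinity and is deposited in vessel basement membranes. It read 103, 111, 111 and 122 CPM in Ctrl sham, 119, 122, 121 and 104 in KO sham, 238, 189, 213 and 265 CPM in Ctrl TAC, and 338, 351, 310.0 and 278 CPM in KO TAC. Sham groups overlapped, every TAC library exceeded every sham library, and every KO TAC library exceeded every Ctrl TAC library. It rose by 1.02 in Ctrl (SE 0.09, edgeR adjusted p = 1.06e-06) and by 1.46 in KO (SE 0.09, edgeR adjusted p = 8.81e-09), calls kept under every alternative run. Igfbp7 shares 85 of its 1209 exonic bases with the last part of Polr2b on the opposite strand.

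Igfbp6 (ENSMUSG00000023046, chr15:102144362-102149511, plus strand) encodes the binding protein that prefers IGF2. It read 8.55, 9.78, 9.55 and 11.3 CPM in Ctrl sham, with 10.8, 9.36, 10.1 and 11.2 CPM in KO sham. It read 22.9, 12.9, 15.98 and 18.05 CPM in Ctrl TAC and 23.6, 24.9, 21.8 and 22.4 CPM in KO TAC. TAC lay above sham in both genotypes, and Ctrl TAC spread widely, from Ctrl TAC 2 at the low end to Ctrl TAC 1 within the KO TAC range. Igfbp6 rose by 0.84 in Ctrl (SE 0.13, edgeR adjusted p = 0.000209) and by 1.16 in KO (SE 0.13, edgeR adjusted p = 2.89e-06).

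Igfbp3 (ENSMUSG00000020427, chr11:7206086-7213923, minus strand), the main IGF carrier of blood, read 19.2, 22.8, 19.6 and 21.2 CPM in Ctrl sham, 20.9, 24.3, 24.9 and 17.4 in KO sham, 31.0, 30.6, 24.0 and 30.3 CPM in Ctrl TAC, and 30.7, 36.8, 40.7 and 33.1 CPM in KO TAC. Ctrl TAC 3 lay well below its group but above every Ctrl sham library, and KO TAC lay above KO sham. The rise was 0.49 in Ctrl (SE 0.11, edgeR adjusted p = 0.00608) and 0.69 in KO (SE 0.11, edgeR adjusted p = 0.000166).

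Igfbp5 (ENSMUSG00000026185, chr1:72857932-72874884, minus strand) encodes a binding protein that attaches to extracellular matrix. It read 67.6, 66.7, 70.2 and 72.9 CPM in Ctrl sham, 58.1, 70.3, 49.2 and 69.995 in KO sham, 79.4, 75.8, 94.4 and 87.6 CPM in Ctrl TAC, and 115, 96.4, 108 and 105 CPM in KO TAC. No pair of groups that differ in surgery overlapped. The rise was 0.28 in Ctrl (SE 0.10, edgeR adjusted p = 0.0480) and 0.78 in KO (SE 0.10, edgeR adjusted p = 8.64e-06). The Ctrl call was marginal and held in 5 of 16 fits that left out 1 library, where the adjusted p ran from 0.0135 to 0.138. It was lost on leaving out any 1 Ctrl sham library, Ctrl TAC 1, 3 or 4, KO sham 1, or KO TAC 1, 3 or 4.

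Igfbp4 (ENSMUSG00000017493, chr11:99041244-99054392, plus strand) encodes an inhibitory binding protein that the protease PAPP-A cleaves. It ranged from 57.5 to 65.0 CPM in Ctrl sham, 54.8 to 59.8 in KO sham, 58.5 to 73.4 in Ctrl TAC and 62.8 to 78.0 in KO TAC. The Ctrl groups overlapped and the KO groups did not. Igfbp4 rose in KO by 0.31 (SE 0.07, edgeR adjusted p = 0.00251), and the Ctrl value of 0.10 (SE 0.07) did not pass (edgeR adjusted p = 0.398). The difference between these responses, 0.22 (SE 0.10), had an adjusted p of 0.448.

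Igfbp2 (ENSMUSG00000039323, chr1:72824503-72852474, plus strand), a binding protein made in quantity by the liver, was close to absent. Its raw counts were 7, 0, 0 and 0 in Ctrl sham, 5, 4, 0 and 0 in KO sham, 8, 61, 39 and 7 in Ctrl TAC and 18, 11, 7 and 13 in KO TAC. Counts were present in every TAC library and were highest in Ctrl TAC 2 and Ctrl TAC 3, and the gene passed the filter on low counts through those groups. Pooled over the libraries, Ctrl TAC exceeded Ctrl sham 15.5-fold (95% exact interval 7.27 to 39.3, counting error only), or 9.77-fold without Ctrl TAC 2 (4.43 to 25.4). KO TAC exceeded KO sham 4.63-fold (2.25 to 10.7). The fitted log2 fold changes were 3.89 in Ctrl (3.23 without Ctrl TAC 2) and 2.17 in KO, and no call is made from them, because the filter on low counts kept the gene through its TAC counts. In a fit of every gene with at least 1 count, where that filter has no part, the values were 3.90 in Ctrl (edgeR adjusted p = 0.0165) and 2.18 in KO (edgeR adjusted p = 0.181). The liver list rose with it in Ctrl TAC 2, where all 5 of 5 listed genes were at their highest of the 16 libraries, but not in Ctrl TAC 3, which held 3.21 CPM of them. The part of liver transcripts in the Igfbp2 counts was not tested.

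Summed per length, the 6 binding protein transcripts were at 133 ± 8.84 CPM per kb in Ctrl sham, 136 ± 6.23 in KO sham, 241 ± 30.1 in Ctrl TAC and 330 ± 28.3 in KO TAC (SD, n = 4). Igfbp7 made up 69.6 ± 0.357% of this sum in Ctrl sham, 70.9 ± 2.09% in KO sham, 77.6 ± 1.71% in Ctrl TAC and 80.0 ± 1.31% in KO TAC. The lowest TAC share, 76.3%, was above the highest sham share, 72.5%. Igfbp4 moved the other way in share, from 10.1 ± 0.336% in Ctrl sham and 9.46 ± 0.820% in KO sham to 6.05 ± 0.975% in Ctrl TAC and 4.84 ± 0.415% in KO TAC, while its own level was not called lower in any comparison. Igfbp6 had a share of 6.34% to 6.89% on average in all groups. The shares were not tested.

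**Figure D4:**
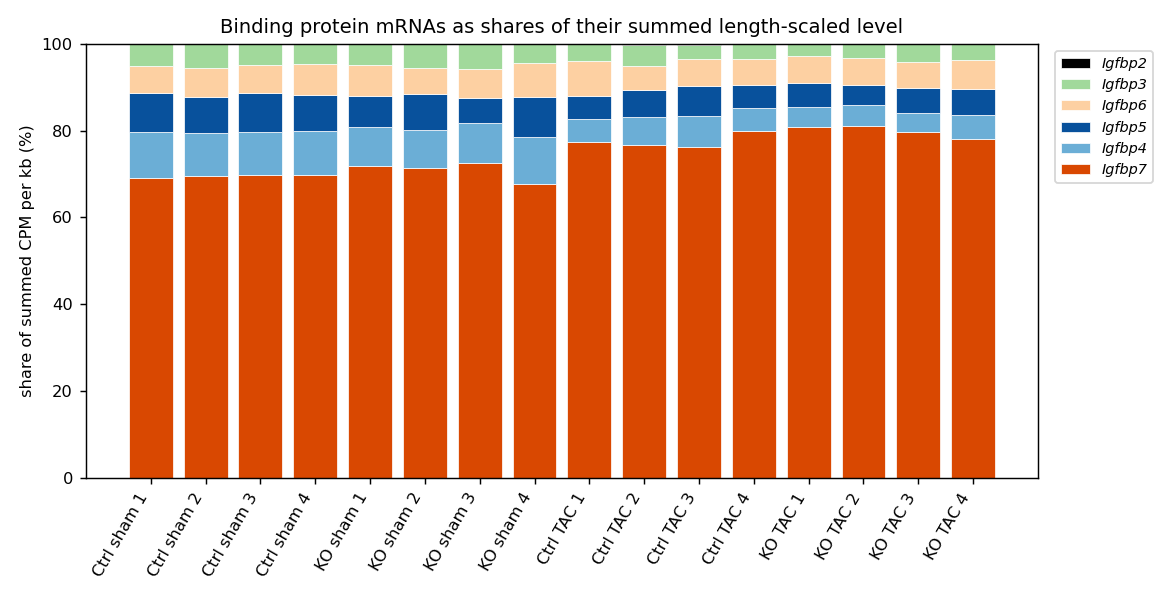
Share of each binding protein transcript in their summed CPM per kb (vertical axis, percent, 0 to 100) in each of the 16 libraries. The Igfbp7 share lies at 67.8% to 72.5% in sham libraries and at 76.3% to 81.0% in TAC libraries, and Igfbp2 is too small to be seen.

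The promoters of the genes that rose in both genotypes are shown to compare their base composition, since members that rose together differ in it. RefSeq starts (GRCm38.p6) gave a promoter window for all 10 genes, in 14 windows of 250 bases upstream of a start. The 3 windows printed belong to genes that rose in both genotypes, have 1 listed start and have no annotated exon in the window. They are chr11:7213924-7214173 (minus strand) for Igfbp3, chr15:102143936-102144185 (plus strand) for Igfbp6 and chr5:77408046-77408295 (minus strand) for Igfbp7. Each is written 5′ to 3′, and capitals mark matches to the motifs searched on both strands. The motif TATAAA was searched as 1 exact form of the TATA box. The motif GGGCGG is the GC box. The motif TGANTCA is the AP-1 site. The motif CATTCC is the core of the M-CAT element, and the CArG box, the core of the serum response element, was searched as well.
Igfbp3: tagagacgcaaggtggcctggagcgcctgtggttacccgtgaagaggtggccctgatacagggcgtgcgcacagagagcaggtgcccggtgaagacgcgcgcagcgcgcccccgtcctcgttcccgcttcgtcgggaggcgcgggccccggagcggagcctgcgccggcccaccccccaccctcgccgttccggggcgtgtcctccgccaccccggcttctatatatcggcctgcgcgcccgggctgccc
Igfbp6: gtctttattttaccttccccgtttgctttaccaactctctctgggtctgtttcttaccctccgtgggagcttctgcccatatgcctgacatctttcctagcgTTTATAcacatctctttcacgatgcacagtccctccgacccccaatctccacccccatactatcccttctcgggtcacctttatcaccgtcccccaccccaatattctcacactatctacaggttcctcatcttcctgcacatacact
Igfbp7: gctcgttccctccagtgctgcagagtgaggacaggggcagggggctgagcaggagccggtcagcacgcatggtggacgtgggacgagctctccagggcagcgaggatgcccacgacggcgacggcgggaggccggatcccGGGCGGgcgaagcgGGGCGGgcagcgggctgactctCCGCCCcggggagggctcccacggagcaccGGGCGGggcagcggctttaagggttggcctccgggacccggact
The Igfbp7 window had a GC content of 74.0%, 26 CpG dinucleotides and 4 matches to GGGCGG, a motif present in 32.7% of all 32851 such windows. The Igfbp3 window was alike in composition (73.2% GC and 32 CpG) and held no exact match to the 5 motifs. Its stretch tatatat, close to the start, is not TATAAA and was not searched for. The Igfbp6 window had 49.6% GC, 7 CpG and 1 match to TATAAA, a motif found in 12.4% of windows on either strand. That match lay on the opposite strand, so it is written TTTATA, at 148 to 143 bases before the start. The median window had 52.4% GC and 6 CpG. Of the printed windows, none held the AP-1 site, the M-CAT core or a CArG box, which were in 6.75%, 12.6% and 1.47% of all windows. This does not hold for the unprinted windows of Igf1 and Igfbp5, which also rose in both genotypes. The Igf1 window, with 250 bases in annotated exons, held 1 match to the AP-1 site. The Igfbp5 window, with 19 such bases, held 1 match to the M-CAT core.

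Whether Cardinal loss altered the system in unloaded hearts was asked by comparing the sham groups. None of the 10 genes was called in KO sham against Ctrl sham by edgeR, none had an unadjusted p under 0.05, and none was called by DESeq2. Over all tested genes, 0.00% were called and 2.62% had an unadjusted p under 0.05. Among the 9 genes other than Igfbp2, differences ran from -0.16 (Igfbp5, SE 0.10) to 0.08 (Igfbp6, SE 0.13), and the 95% intervals of these 9 lay within -0.44 to 0.37.

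Under pressure overload, Igfbp7 was the 1 gene of 10 called between genotypes, higher in KO TAC than in Ctrl TAC by 0.50 on the log2 scale (SE 0.09, edgeR adjusted p = 0.0142). Over all tested genes 2.68% were called, 1.36% as higher and 1.32% as lower. The libraries did not overlap, at 189 to 265 CPM in Ctrl TAC and 278 to 351 CPM in KO TAC. Within the animal numbers starting with 25, the library labelled KO TAC 4 read 278 CPM against 189, 213 and 265 CPM in Ctrl TAC. That library held 4.55 CPM of Cardinal, against its label, so this may not compare 2 genotypes. Within the animal numbers starting with 34, KO TAC 1 to 3 read 310.0 to 351 CPM against 238 CPM in Ctrl TAC 1. In either series 1 group had a single library, and these values were not tested. The difference was 0.56 without the library labelled KO TAC 4 (adjusted p = 0.00899), 0.42 without Ctrl TAC 2 (adjusted p = 0.0490) and 0.48 without both (adjusted p = 0.0220). It did not pass the threshold with the series as a term (0.40, adjusted p = 0.112) or in a fit to the 8 libraries of these groups alone (0.49, adjusted p = 0.0517).

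In the same comparison, 6 of the 10 genes had an unadjusted p under 0.05, against 18.5% of all tested genes. The 5 other than Igfbp7 did not pass the adjustment. Higher in KO TAC were Igfbp6 by 0.41 (SE 0.13, edgeR adjusted p = 0.0882), Igf1 by 0.40 (SE 0.16, edgeR adjusted p = 0.181), Igfbp5 by 0.33 (SE 0.10, edgeR adjusted p = 0.0685) and Igfbp3 by 0.29 (SE 0.11, edgeR adjusted p = 0.182). Igf2 was lower, at -0.46 (SE 0.15, edgeR adjusted p = 0.0921). Igfbp5 libraries did not overlap between these groups and those of the other 4 genes did. In the DESeq2 test Igfbp5, Igfbp6 and Igf2 passed as well, with adjusted p of 0.0211, 0.0308 and 0.0363. Leaving out 1 library also added calls: Igfbp5 without KO sham 3 (adjusted p = 0.0287), Igfbp6 without Ctrl TAC 1 (adjusted p = 0.0129) and Igf1 without Ctrl TAC 4 (adjusted p = 0.0491). Without Ctrl TAC 2 and the library labelled KO TAC 4, none of the 5 was called. The values were then 0.31 for Igfbp6 (adjusted p = 0.260), 0.29 for Igfbp5 (adjusted p = 0.267), 0.34 for Igfbp3 (adjusted p = 0.284) and -0.38 for Igf2 (adjusted p = 0.249). Igf1 was at 0.23 (adjusted p = 0.596) and no longer had an unadjusted p under 0.05.

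The interaction asks whether the response to TAC itself differed between genotypes. No member was called by edgeR or DESeq2, and 0.0109% of all tested genes were. At an unadjusted p under 0.05 there were 3 members, against 11.1% of all genes. They were Igfbp5 (0.50, SE 0.14, edgeR adjusted p = 0.228), Igfbp7 (0.44, SE 0.13, edgeR adjusted p = 0.248) and Igfbp4 (0.22, SE 0.10, edgeR adjusted p = 0.448). Without Ctrl TAC 2 and the library labelled KO TAC 4 there were 2. They were Igfbp5 (0.45, edgeR adjusted p = 0.381) and Igfbp7 (0.42, edgeR adjusted p = 0.251), while Igfbp4 was at 0.18 (edgeR adjusted p = 0.640). A call in 1 genotype and not in the other, as for Igfbp4, was therefore not shown to be a difference between genotypes.

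Fibroblast markers, like Igf1 and most binding proteins, were higher with TAC, while Igf2, Igf1r and Igf2r were not called in the main fit. The summed level of 8 fibroblast markers was 1268 to 1463 CPM in Ctrl sham, 1328 to 1383 in KO sham, 1636 to 2089 in Ctrl TAC and 2120 to 2401 in KO TAC, and 4 of 8 were called higher in Ctrl TAC and 7 of 8 in KO TAC. The 7 activated fibroblast markers in the annotation went from 35.7 to 61.1 CPM in Ctrl sham and 42.9 to 49.3 in KO sham to 196 to 386 in Ctrl TAC and 570 to 712 in KO TAC, with 7 of 7 called higher with TAC in each genotype. In KO TAC against Ctrl TAC, 5 of the 7 activated markers and 1 of the 8 general fibroblast markers were called, all higher. None of 8 endothelial markers was called in any comparison. Of 8 smooth muscle and pericyte markers, 2 were called higher and 1 lower in Ctrl TAC, and 3 higher and 1 lower in KO TAC. Of 6 tested lymphocyte markers, 3 were called higher in KO TAC and none in Ctrl TAC. Of 3 tested atrial markers, 1 was called higher in Ctrl TAC and none in KO TAC. Macrophage markers were called higher in 3 of 8 cases in Ctrl TAC and 6 of 8 in KO TAC, with 1 of 8 called lower in KO TAC than in Ctrl TAC. Of 8 cardiomyocyte markers, 5 were called lower and 2 higher in Ctrl TAC, 6 lower and 1 higher in KO TAC, and 2 lower in KO TAC against Ctrl TAC. Beside these counts, 10.4% of all tested genes were called higher and 9.60% lower in Ctrl TAC, and 17.8% and 16.5% in KO TAC. In KO TAC against Ctrl TAC the shares were 1.36% and 1.32%. The part of cell composition in the changes of the IGF genes was not tested.

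The genes whose profiles over the 16 libraries were most like those of a member that had changed by 1 log2 unit or more were found among 12345 genes, by the root mean square difference of centred log2 CPM. For Igfbp7 they were Sparc, a matricellular glycoprotein (difference 0.08), Mmp23 (0.11) and Lbp (0.12), against a spread of Igfbp7 itself of 0.65. Sparc ran at 254 CPM in Ctrl sham, 526 in Ctrl TAC, 257 in KO sham and 672 in KO TAC. For Igfbp6 they were Gpx3, an extracellular glutathione peroxidase (0.14), Prelp, a matrix proteoglycan (0.15), and Lbp (0.15), against a spread of 0.55. For Igf1 they were the chemokine gene Cx3cl1 (0.15), Phlda3 (0.16) and Pmepa1 (0.16), against 0.50. For Igfbp2 the closest, Tnc, Pacsin1 and Ankrd2, differed by 0.92 to 0.99 against its own spread of 1.51. Igfbp2 came in through its fitted value in Ctrl TAC, for which no call is made above. Its profile rests on 0 to 61 counts per library, so nothing is read from these neighbours.

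The genes around the ligands and receptors were read from 6 lists of 55 genes, of which 50 could be tested. In Ctrl TAC 5 rose and 7 fell, and in KO TAC 8 rose and 12 fell, with medians of -0.03 and -0.08. These were 24.0% and 40.0% of the 50, beside the 20.0% and 34.3% called over all tested genes. None was called in KO TAC against Ctrl TAC, in KO sham against Ctrl sham or in the interaction by edgeR, and 1 gene, Stc1, was called in KO TAC against Ctrl TAC by DESeq2 and by edgeR without the library labelled KO TAC 4. Without Ctrl TAC 2 and the library labelled KO TAC 4 the counts were 4 and 6 in Ctrl and 9 and 10 in KO, and with the animal-number series 2 and 5 in Ctrl and 8 and 11 in KO.

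Among 6 tested proteases of binding proteins and their inhibitors, 1 rose and 1 fell in Ctrl TAC and 3 rose and 2 fell in KO TAC. That was 33.3% and 83.3% of a short list, beside the 20.0% and 34.3% called over all tested genes. Adamts1, a secreted metalloprotease, went from 48.0 ± 7.20 CPM in Ctrl sham and, in KO sham, 48.0 ± 6.47 to 98.99 ± 15.4 in Ctrl TAC and 114 ± 14.6 in KO TAC (SD, n = 4; log2 fold changes 1.04 and 1.25). Htra1, a serine protease that cleaves binding proteins, fell by 0.60 in Ctrl and by 0.71 in KO, to 55.3 ± 1.98 and 51.3 ± 3.74 CPM. Pappa, whose protease product acts on IGFBP4, fell by 0.87 in KO (SE 0.24, edgeR adjusted p = 0.00830) from a low 1.19 ± 0.180 CPM, and changed by -0.32 in Ctrl (SE 0.24, edgeR adjusted p = 0.393). Stc1, encoding a stanniocalcin, a protein family that inhibits PAPP-A, rose in KO by 1.63 (SE 0.28, edgeR adjusted p = 0.000360) and read 8.48 ± 3.27 CPM in KO TAC against 4.01 ± 0.874 in Ctrl TAC. Its relative Stc2 was not called in any comparison. Adam12, a protease reported to cleave IGFBP3 and IGFBP5, rose in KO by 1.499 (SE 0.24).

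Among 10 tested receptor adaptors and inhibitors, 4 rose and 1 fell in either genotype, or 50%, beside 20.0% and 34.3% over all tested genes. They were Grb10 (0.43 in Ctrl and 0.26 in KO), an inhibitory adaptor of the insulin and IGF1 receptors, Socs2 (0.33 and 0.53), a feedback inhibitor of growth hormone signalling, the phosphatase gene Ptpn1 (0.22 and 0.36), and the adaptor gene Shc1 (0.20 and 0.30), which rose, and Grb14 (-0.27 and -0.37), which fell. The receptor substrates Irs1 and Irs2 were not called, and Irs2 spread from 10.2 to 27.4 CPM within Ctrl sham alone.

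Of 22 genes of the PI3K, AKT, FOXO and mTOR pathway, 3 fell and none rose in Ctrl TAC, and 6 fell and 1, Rps6kb1, rose in KO TAC. That was 13.6% and 31.8% of the list, at or under the 20.0% and 34.3% called over all tested genes. The genes that fell in Ctrl were Akt2, Tsc1 and Rictor. Akt2 fell in both (by 0.38 and by 0.46), Pik3r1, the regulatory PI3K subunit gene, fell in KO by 0.76 (SE 0.23, edgeR adjusted p = 0.0218), and so did Foxo3 by 0.57 (SE 0.13, edgeR adjusted p = 0.00246). Akt1 was not called, at 167 to 187 CPM in the group means. Among 4 genes of growth hormone signalling, 2 fell in Ctrl TAC (Ghr and Stat5b) and 3 in KO TAC (also Stat5a). Stat5a is a close relative of Stat5b and may share reads with it. These shares, 50% and 75%, are of a list of 4 genes, beside the same 20.0% and 34.3%. The receptor gene Ghr went from 136 ± 4.93 to 101 ± 11.9 CPM in Ctrl and from 126 ± 12.7 to 92.0 ± 7.84 CPM in KO (log2 fold changes -0.44 and -0.45). The insulin receptor gene Insr and Igfals, which encodes the acid-labile subunit of the blood IGF complex, were not called in any comparison.

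**Figure D5:**
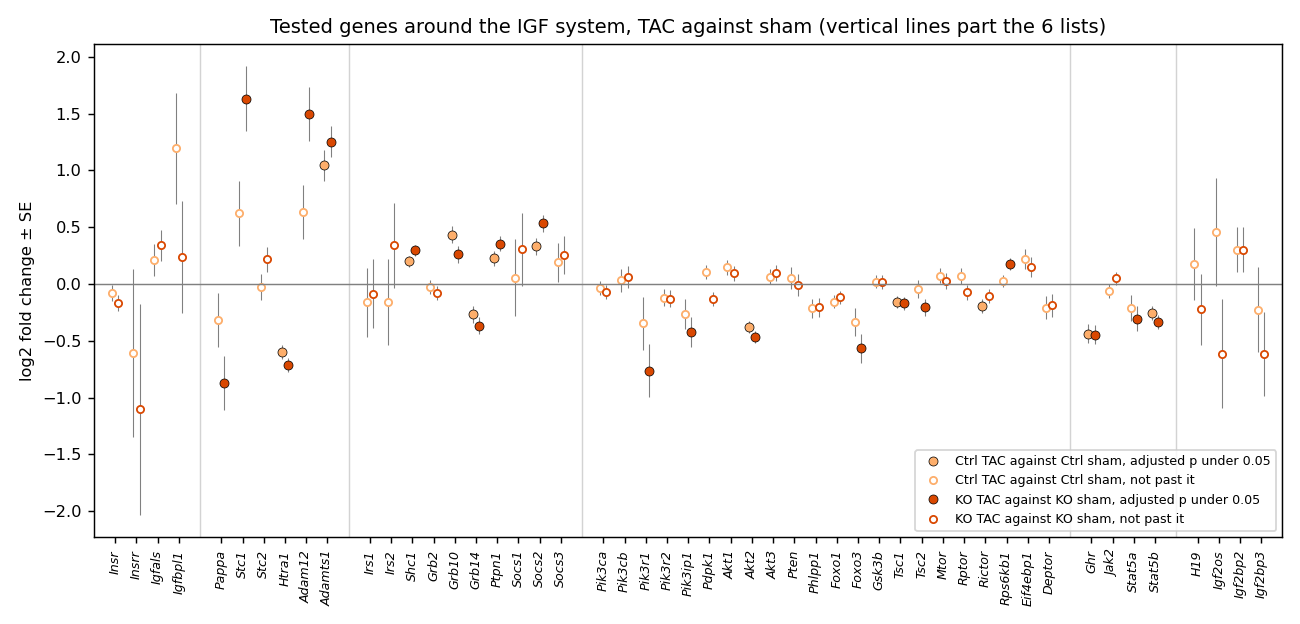
log2 fold change ± SE (vertical axis) of the 50 tested genes around the IGF system for TAC against sham in Ctrl and in KO, grouped by list between the vertical lines in the order receptors, proteases, adaptors, PI3K pathway, growth hormone signalling and Igf2 neighbours. Filled points passed an adjusted p of 0.05. Adamts1 stands at 1.04 and 1.25 and Htra1 at -0.60 and -0.71, and most PI3K pathway genes lie near 0.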

How the data were processed

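Poly(A)-selected RNA of 16 heart apices was sequenced as paired reads. The file the authors deposited holds unnormalized counts of reads for each Ensembl gene, 1 column to a mouse. Per the labels, processing used cutadapt 2.3, HISAT2 2.1.0, edgeR 3.26.1, FastQC and GRCm38. The counting program and its use of strand are not given in the sources used here. Columns were matched to samples by the animal number in the titles. Replicates were numbered in sample order, so the numbers pair nothing. Each mouse gave 1 library.

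Gene names, positions and exon lengths came from GENCODE M21 (GRCm38), which named 55227 of 55487 identifiers. The counting annotation may differ. The members and lists were chosen with earlier results of these data known. Genes were filtered with filterByExpr (18275 kept) and scaled by TMM in edgeR 4.0.16 (R 4.3.3). A quasi-likelihood model with 1 mean per group (glmQLFit, robust) gave 5 contrasts, with Benjamini-Hochberg adjustment over all tested genes and a threshold of 0.05. The SE was the absolute log2 fold change divided by the square root of F, and 95% intervals used 12 degrees of freedom. The model was tested on simulated counts. The text names all 10 members, 10 preset pathway genes, up to 4 called pathway genes with the largest change in each direction per contrast, and for each called member with a log2 change of at least 1 the 3 genes most like it. Igfbp2 entered that last search by its fitted adjusted p, although no call is given for it. Some genes were also named after their values were seen, to complete small counts (Shc1, Rps6kb1, Tsc1, Rictor, Stat5a and Stat5b). Alternatives were RLE size factors, DESeq2 1.42.0, no filter beyond 1 count, at least 10 counts in every library, a threshold of 0.01, terms for animal numbers starting with 25 or 33, fits to 2 groups, leaving out each library in turn (16 fits) and leaving out Ctrl TAC 2 with KO TAC 4. Pathway counts and pooled Igfbp2 ratios without these libraries, and member counts without Igfbp2, were chosen after seeing the data. Library totals of 53169437 to 79404714 counts make counting error small for all members but Igfbp2. Intervals from counts cover counting error only.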

Additional observations from a re-analysis of the deposited data

Results flagged for a closer look

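Of 40 sets of 4 libraries (10 genes in 4 groups), 4 had 1 library far from the other 3 by Dixon's test, which flags about 1 in 20 by chance. Igfbp7 in KO sham 4 was the lowest of its group, at 104 CPM. Igfbp3 in Ctrl TAC 3 was the lowest of its group, at 24.0 CPM. Igfbp4 in Ctrl sham 4 was the highest of its group, at 65.0 CPM. Igfbp2 in Ctrl sham 1 was at 0.0974 CPM, which is 7 counts, where the other Ctrl sham libraries had 0 counts. These 4 values came from 4 different libraries, and none of them was Ctrl TAC 2 or the library labelled KO TAC 4.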

How the results depend on the processing

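No paired analysis was possible because the labels give the groups no shared replicate numbers. These counts are over all 10 genes, Igfbp2 included. The count of members called in KO TAC against KO sham stayed at 6 to 7 under every setting run, and those in KO sham against Ctrl sham and in the interaction stayed at 0. In Ctrl TAC against Ctrl sham the count was 5 or 6 under the other settings run. It moved from 6 to 3 with the animal-number series starting with 25 as a term, which overlaps with surgery because no sham library is in it. The 6 includes Igfbp2, for which no call is made above. Over the other 9 genes the count was 5 in the main fit, 4 with no filter beyond 1 count and 3 with that series as a term. In KO TAC against Ctrl TAC the count of 1 became 4 with DESeq2 and 0 with the animal-number series starting with 25 as a term, in the fit to the 2 groups or at an adjusted p under 0.01, and it ran from 1 to 2 when 1 library was left out (2 without Ctrl TAC 1, without Ctrl TAC 4 or without KO sham 3). The cause of these changes was not tested, apart from the threshold and the smaller fit, which change by construction. The filter of at least 10 counts in every library removed Igfbp2, and it has no value there.

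The values that changed sign were not called with any setting run. With the animal-number series starting with 25 as a term, Ctrl TAC against Ctrl sham became -0.17 for Igf2 and 0.17 for Igf1r, and Igf1r became 0.054 in KO TAC against KO sham, -0.050 in KO TAC against Ctrl TAC and -0.12 in the interaction. With animal numbers starting with 33 as a term, Igf1r became 0.026 in Ctrl TAC, 0.11 in KO TAC and -0.010 between sham groups, where Igf2r became 0.0033, Igfbp3 -0.050 and Igfbp7 -0.042. Without Ctrl TAC 2 and KO TAC 4 together, Igf2 became -0.14 in Ctrl TAC and Igf1r 0.035 in KO TAC, and with no filter beyond 1 count Igf1r became 0.0050 in KO TAC. With 1 library left out, Igf2 ran from -0.14 to 0.10 in Ctrl TAC, Igf1r from -0.11 to 0.055 in Ctrl TAC, from -0.062 to 0.035 in KO TAC and from -0.063 to 0.10 in the interaction, Igf2r from -0.036 to 0.055 in KO TAC and from -0.028 to 0.029 between sham groups, and Igfbp2 from -0.23 to 4.34 between sham groups, the last without Ctrl sham 1, which leaves that group at 0 counts, so that the fitted value is no bound. The cause of the other changes was not tested. The depth limits Igfbp2 alone among the 10 genes, and with 4 mice a group the spread between mice sets the error of the rest.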

Other observations

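The Igf2 locus and the remaining binding proteins were also read. H19, the imprinted noncoding RNA gene that lies 72622 bases from Igf2 and is expressed from the other parental allele, was at 9.29 ± 3.04 CPM in Ctrl sham, 9.72 ± 4.88 in KO sham, 10.5 ± 2.76 in Ctrl TAC and 8.31 ± 1.63 in KO TAC (SD, n = 4). No comparison called it. Igf2os, which is antisense to Igf2, had 3 to 17 counts per library.

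Igfbp1, whose gene lies 3539 bases from Igfbp3 on chromosome 11, had 3 counts in Ctrl TAC 2 and 4 in KO TAC 2. It had 0 counts in the other libraries, each of which allows up to 3. Igfbp2 and Igfbp5 lie 5457 bases apart on chromosome 1. In Ctrl TAC, Igfbp2 was highest in Ctrl TAC 2 at 0.911 CPM and next in Ctrl TAC 3 at 0.593 CPM, while Igfbp5 was lowest in the first of these at 75.8 CPM and highest in the second at 94.4 CPM. Stc2 had 11.7 to 14.6 CPM in Ctrl TAC and 12.6 to 14.1 CPM in KO TAC, and Stc1 had 3.20 to 4.87 CPM and 5.64 to 13.0 CPM.

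Relative to the summed binding protein level per length, taken as 100, Igf1 stood at 0.623 ± 0.0416 in Ctrl sham, 0.578 ± 0.104 in KO sham, 0.531 ± 0.0569 in Ctrl TAC and 0.522 ± 0.130 in KO TAC, with overlapping libraries. Igf2 stood at 1.18 ± 0.205, 1.09 ± 0.0776, 0.676 ± 0.234 and 0.352 ± 0.0966 in the same order, and every KO TAC library was below every library of the other groups. The lowest value outside KO TAC was 0.482, in Ctrl TAC 4, against 0.440 in the library labelled KO TAC 4. These ratios were not tested.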
